A study of Mus musculus with 65 samples.

Results

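The regions described here are stretches of the mouse genome that held more histone H3.3 after 6 days of retinoic acid differentiation than in undifferentiated embryonic stem cells. They were taken from the deposited H3.3 region table, which gives scaled read numbers for each region in 2 libraries of day 0 and 2 of day 6. The members were chosen by these H3.3 reads: a region was a member when log2 of (mean day 6 reads + 1) over (mean day 0 reads + 1) was 0.4 or more and both day 6 libraries lay above both day 0 libraries. Of the 14812 regions of the table, 1115 (7.53%) met the rule. The mirror rule, applied to losses, found 2776 regions (18.7%). Because H3.3 chose the members, all H3.3 values below are a description and carry no test.

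Day 0 was wild-type stem cells of a mouse line kept pluripotent with leukaemia inhibitory factor (LIF) in serum, and day 6 was embryoid bodies, floating cell aggregates grown from them without LIF, with 10 µM all-trans retinoic acid and constant rotation. Chromatin was immunoprecipitated from wild-type cells at both days with antibodies to H3.3, H3, H3K27me3 and H3.3K27me3, in biological duplicates. RNA was sequenced in 17 libraries: wild type at days 0, 3 and 6 in 2019 (2 each), and in 2020 wild type at day 0 (1 library) and day 6 (2), an H3.3A knockout line at both days (2 each) and an H3.3K27A line at both days (2 each). H3.3A knockout cells lack function of H3f3a, which with H3f3b encodes H3.3, and in H3.3K27A cells the lysine at position 27 of H3.3 is replaced by alanine. The labels do not give the number of clones behind either edited line, and do not say whether H3.3K27A cells also lack H3f3a. They do not say whether RNA duplicates came from separate cultures, so RNA p-values speak only of how far the sequenced libraries lay apart.

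H3.3 is the variant of histone H3 that is placed into chromatin outside DNA replication, by the HIRA complex at active genes and regulatory elements and by DAXX and ATRX at repeats. H3K27me3 is the mark that Polycomb repressive complex 2 leaves on silent developmental genes in stem cells. Retinoic acid enters the nucleus and binds receptors (RAR with RXR) that sit on paired copies of a short sequence and switch on target genes, among them genes of retinoid metabolism, and it drives embryoid bodies towards neural and extraembryonic endoderm fates.

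Paired receptor hexamers lay inside members at genes of the retinoic acid list, and the sequences at 5 of these genes are shown. They were chosen because the receptors of retinoic acid, used to differentiate the cells, sit on pairs of this kind. Binding at these sites was not measured. The search was for a hexamer followed after 5 bases by another, on either strand, counting overlapping matches separately. The hexamer was AGGTCA, with G also allowed in place of its first A and T in place of its last G, so that 4 forms counted. Capitals mark the hexamers and each sequence is printed 5′ to 3′ on the strand of the match, from the GRCm38 (mm10) genome. The Rarb site is chr14:16575507-16575535 on the minus strand, within the 5′ UTR of a GENCODE transcript and 53 bases before the RefSeq start counted at the pair's first base, and only 6 bases are shown on each side of it. The Dhrs3 site is chr4:144898355-144898411 (plus, intron), the Cyp26b1 site chr6:84566614-84566670 (plus, outside annotated genes and 21.0 kb downstream of the nearest GENCODE start of Cyp26b1) and the Meis1 site chr11:18907763-18907819 (plus, intron). The Meis2 sites are chr2:115869316-115869372 and chr2:115870746-115870802 (both plus, intron) and chr2:116071222-116071278 (minus, 5.41 kb upstream of the nearest Meis2 start, in an intron of G630016G05Rik).
Rarb: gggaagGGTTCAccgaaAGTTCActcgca
Dhrs3: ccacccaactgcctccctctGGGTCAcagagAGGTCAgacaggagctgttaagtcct
Cyp26b1: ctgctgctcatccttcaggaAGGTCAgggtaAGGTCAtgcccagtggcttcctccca
Meis1: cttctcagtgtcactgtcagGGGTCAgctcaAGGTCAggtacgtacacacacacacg
Meis2 site 1: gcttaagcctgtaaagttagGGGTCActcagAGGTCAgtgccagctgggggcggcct
Meis2 site 2: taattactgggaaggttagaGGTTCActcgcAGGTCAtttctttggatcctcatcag
Meis2 site 3: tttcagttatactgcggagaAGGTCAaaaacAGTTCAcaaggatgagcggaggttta

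Pairs with this spacing were present in 126 of the 1115 members and in 1789 of all 14811 regions that lie within the build. By this count members were not richer in pairs than all regions, which were wider. Per length there were 0.0651 matches per 10 kb in members, against 0.0405 per 10 kb over all regions of the table. In windows of equal length, the central 2000 bases of each region, a pair was present in 18 members (1.61%), in 31 regions that lost H3.3 (1.12%) and in 129 of all 14811 regions that lie within the build (0.871%). Among RefSeq promoters (250 bases before to 50 after a start), 344 had their start inside a member and 3 of them held a pair (0.872%), against 32 of 32851 promoters in all (0.0974%). The 3 belonged to Rarb, Gm39910 and Gm52524, named after their values were seen. Pairs with a spacer of 2 bases were sparser in members (0.102 per 10 kb) than over all regions (0.147), but were present in 3 of the 344 promoters with a start inside a member (0.872%) against 0.268% of all promoters. With a spacer of 1 base there were 0.0967 per 10 kb in members and 0.0838 over all regions. Homeodomain core TAATTA occurred 4.40 times per 10 kb in members and 3.73 over all regions, and the GATA site AGATAA 8.01 and 6.72 times. The KLF site GGGCGTGG was sparser in members, at 0.189 against 0.468 per 10 kb. A match is a description of the letters and not of binding.

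Members held few H3.3 reads at day 0 and came close to the table's usual level at day 6. Per kb of region, the median member had 20.5 and 20.5 scaled reads in the day 0 libraries and 31.7 and 30.4 in the day 6 libraries, while the median over all regions was 29.9 and 29.9, then 28.4 and 27.2. Regions that lost H3.3 were the reverse, with 34.9 and 34.8 at day 0 and 23.6 and 22.8 at day 6. The log2 gain of members ran from 0.40 to 1.52 with a median of 0.57, in a table whose median change was -0.12. In 40 members the gain was 1 or more, and in 21 both day 6 values were over 2 times both day 0 values.

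**Figure D1:**
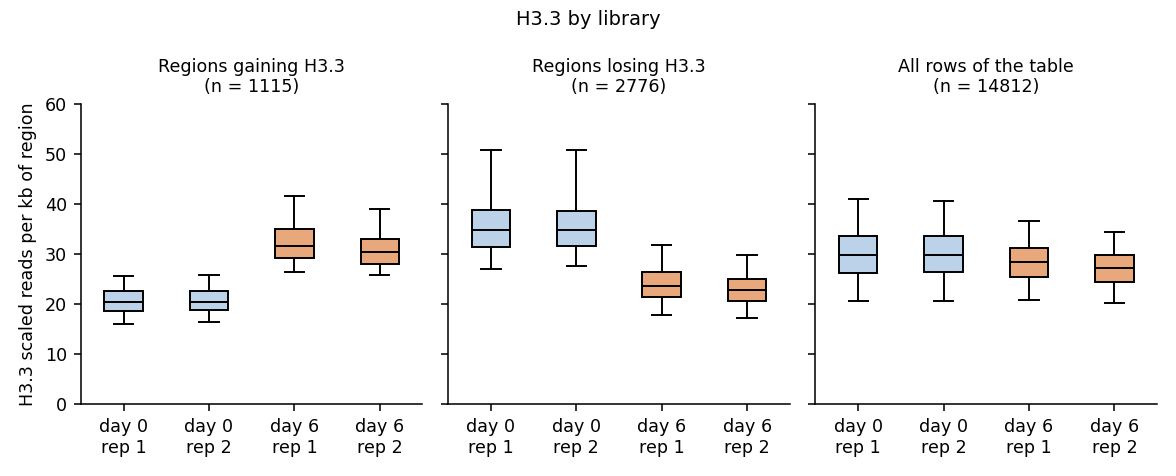
H3.3 scaled reads per kb of region (vertical axis) in each of the 4 H3.3 libraries, for regions gaining H3.3, regions losing H3.3 and all regions. Lines are medians, boxes the quartiles and whiskers the 5th to 95th percentiles over regions; the members sit at a median of 20.5 in both day 0 libraries and at 31.7 and 30.4 in the day 6 libraries.

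Among members in the upper part of the range of signal at day 6, those with the largest gains included 3 at retinoic acid genes. A distal region 250.4 kb from the start of Meis1, a homeodomain cofactor of HOX proteins (chr11:18743984-18768520), had 525 and 481 scaled reads at day 0 and 1075 and 996 at day 6, a log2 gain of 1.04. At Rarb, retinoic acid receptor beta (chr14:16533451-16578823, over a promoter), the values were 767 and 754, then 1556 and 1466, a gain of 0.99. At Dhrs3, which turns retinaldehyde back to retinol (chr4:144891006-144934447, over the promoter), they were 866 and 849, then 1765 and 1606, a gain of 0.97. In each of these regions both day 6 values were close to 2 times the day 0 values. That the days do not overlap is required of every member by the rule. The others of the 10 largest within that part of the range were annotated to Nt5c1b (1.06), Usp29 (1.00), Wdr11 (0.97), Macrod2 (0.96), Aff3 (0.95), Gramd3 (0.95) and Mir6354 (0.92), and all of these lay in introns or between genes.

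At the threshold, the members nearest above it were at Zfp608, Sema3a and Rerg, each with a gain of 0.40. The regions nearest below it were at Gpx7 (0.3994), Notch2 (0.3989) and a promoter region of Plxna2 (0.3986), and in all 3 both day 6 libraries also lay above both day 0 libraries.

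Members were mostly away from gene starts. A gene start lay inside 204 members (18.3%), against 46.3% of all regions and 38.5% of regions losing H3.3. The authors' annotation placed 36.9% of members between genes, 25.0% in introns and 19.6% at promoters, while over all regions the shares were 24.7%, 9.79% and 47.7%. The nearest start was more than 100 kb away for 39.3% of members and 19.5% of all regions. Members were also narrower, with a median width of 13812 bases (1337 to 425686) against 19824, and together covered 22.7 of the table's 544 Mb. Their median GC content was 42.2% (43.3% over all regions) and their median share of annotated repeats was 19.9% (26.1%). Gains were larger in narrow members: members up to 8214 bases wide had a median gain of 0.66 and a start inside 10.0% of them, and those of 23251 bases or more 0.53 and 34.8%.

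**Figure D2:**
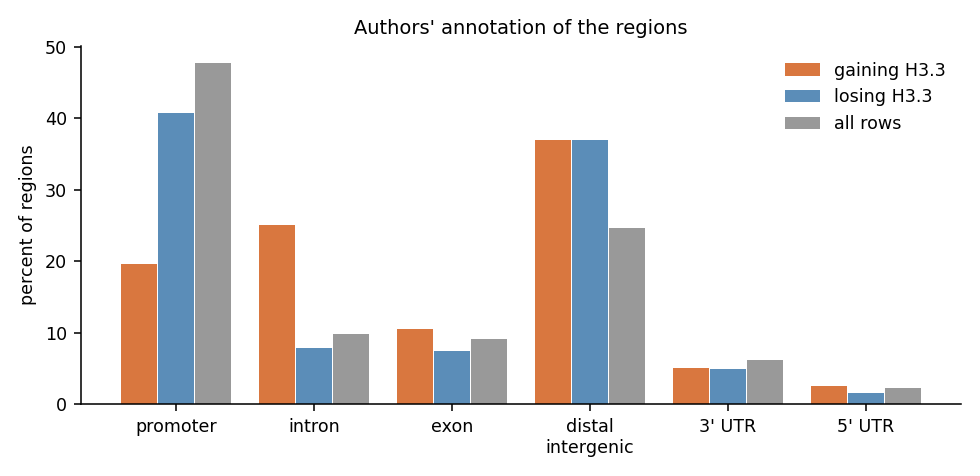
Share of regions (percent, vertical axis) in each class of the authors' annotation for regions gaining H3.3, regions losing H3.3 and all regions of the table. Introns hold 25.0% of gaining regions and 9.79% of all regions, and promoters 19.6% and 47.7%.

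The members were annotated to 753 genes, 8.45% of the 8914 genes in the table. Most genes (559) had 1 member, 123 had 2, and 71 had 3 or more, which together held 310 members. The longest series was at Gpc6, a heparan sulfate proteoglycan of the glypican family, where 15 of 24 regions were members and none lost H3.3. They were spread over 1401 kb, with gains of 0.41 to 0.69. Zfp608, a zinc finger gene, had 14 of 16 (0.40 to 1.52), and Maml3, a Notch coactivator, had all 9 of its regions (0.43 to 0.87). Nr2f1, a nuclear receptor of neural and mesenchymal progenitors, had 10 members, all of them 376 to 1141 kb away with no start inside. Mecom had 9, Sox6 8, Mir99ahg 7, Dach1 6 and Maf 6, and Rarb and Nr2f2 had 5 each. At Rarb all 5 regions were members, with gains of 0.68 to 0.99. Members of 1 gene are neighbouring stretches of the same locus and not independent.

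On the autosomes, members made up between 4.00% (chromosome 11) and 13.9% (chromosome 18) of regions, and none of the 29 regions on chromosome X was a member. Chromosomes 8 and 14 stood apart in the whole tables: their median change in H3 was 0.04 on both, where every other autosome lay between -0.16 and -0.06, and they held the most H3 rows (824 and 777). Chromosome 8 also had the highest median change in H3.3 (0.07) and in H3K27me3 (0.00). RNA showed no such shift, with a median log2 change of 0.01 on chromosome 8 and 0.09 on chromosome 14 in 2019. The cause was not tested, and results on H3 and H3K27me3 are therefore given with and without these 2 chromosomes.

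H3K27me3 fell at many of the members that carried it. Of the 1115 members, 248 overlapped a row of the deposited H3K27me3 table (229 different rows). At 125 of them (50.4%) H3K27me3 fell and at 27 (10.9%) it rose, tested with limma on log2(scaled reads + 1) and called at a Benjamini-Hochberg adjusted p below 0.05 over the whole table. Over all 10491 rows, 39.4% were lower and 5.56% higher, and the median log2 change was -0.22 for members against -0.13 for the table. With each library centred on its median, 103 members were lower (41.5%) and 77 higher (31.0%), beside 23.4% and 24.8% of all rows. The share that rose therefore depends on the scaling. Of all 5103 regions of the H3.3 table that overlapped such a row, 42.7% were lower and 7.27% higher before centring. After centring these shares were 26.0% and 31.8%, so the share of members that rose was near that of all H3.3 regions. Without chromosomes 8 and 14, 116 of 178 members were lower (65.2%) and 10 higher (5.62%), beside 44.7% and 5.12% of the rows there.

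The deepest falls were at transcription factor and retinoic acid genes. At Cyp26b1, which degrades retinoic acid, scaled H3K27me3 reads were 1378 and 1517 at day 0 and 532 and 447 at day 6 (log2 -1.57, SE 0.07, limma adjusted p = 1.62e-93). At Meis2, a homeodomain cofactor like Meis1, they were 2540 and 2624, then 1058 and 978 (log2 -1.34, SE 0.06, limma adjusted p = 1.49e-102). At Nr2f2, a nuclear receptor of mesenchyme and endothelium, they were 4934 and 5492, then 2104 and 1801 (log2 -1.42, SE 0.05, limma adjusted p = 9.00e-179). At each of the 3 the day 6 libraries lay well below the day 0 libraries, and the gains of H3.3 there were 0.79, 0.65 and 0.48. Dhrs3 fell by 2.04 on the log2 scale (196 and 198, then 65 and 34), from a narrow row of 3.7 kb that covered 8.43% of the member, and Tshz1 fell by 1.43. All 5 of these rows stayed lower after centring.

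Of the 11 retinoic acid genes with a member, 8 had H3K27me3 at one, and it fell at all 8: besides Cyp26b1, Meis2, Dhrs3 and Tshz1 these were Meis1 (2156 and 2485, then 955 and 889), Nrip1 (174 and 208, then 91 and 91), Stra6 (1567 and 1566, then 996 and 894) and Aldh1a2 (1895 and 2003, then 1641 and 1509). The share of the member covered by the H3K27me3 row ran from 3.92% at Nrip1 to 100% at Stra6. The row at Aldh1a2 was annotated to Gm3458, and its fall was small after centring (log2 -0.15, limma adjusted p = 0.0212). Site 3 of Meis2 shown above lies inside the row that fell, and the pairs at Dhrs3, Cyp26b1 and Meis1 lie in the member but outside the row. Endoderm regulators fell as well, with log2 changes of -1.10 at Gata6, -0.98 at Sox17 and -0.54 at Foxa2. H3K27me3 rose most at Mbd3l2 (201 and 257, then 328 and 349, log2 0.57), Prkg1 (0.51), an intron of Gpc6 (0.43), 8030451O07Rik (0.29) and Mir99ahg (0.26).

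**Figure D3:**
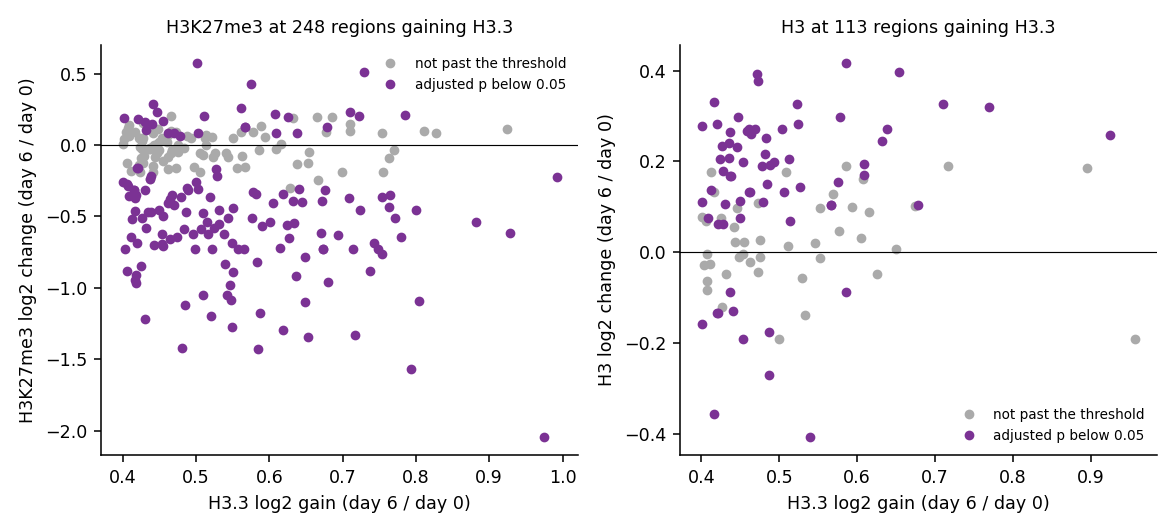
Log2 change of H3K27me3 (left, 248 members) and of H3 (right, 113 members) from day 0 to day 6 on the vertical axis against the log2 gain of H3.3 on the horizontal axis, 1 point per member. Coloured points passed an adjusted p below 0.05 (limma); H3K27me3 points reach down to -2.04 at Dhrs3, and H3 points stay between -0.41 and 0.42.

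Peaks of H3.3K27me3, H3.3 that itself carries the mark, covered few members at either day. A peak found in both duplicates overlapped 104 members at day 0 (9.33%) and 101 at day 6 (9.06%), while over all regions the share went from 22.8% to 16.1%. Of these members, 39 had a peak at both days, 65 at day 0 alone and 62 at day 6 alone. Where a gene start lay inside the member, the share went from 25.0% to 10.8% (of 204), and elsewhere from 5.82% to 8.67% (of 911). An overlap of 1 base was enough, and the share differed with width. Of the 278 narrowest members, 1.80% had an H3.3K27me3 peak in both duplicates at day 0 and 3.24% at day 6. Of the 279 widest these shares were 21.1% and 20.4%. Members were narrower than all regions (medians of 13812 and 19824 bases). The part of width in the peak shares of members, all regions and members with a start inside was not tested. H3K27me3 peaks went from 175 members (15.7%) to 99 (8.88%), against 26.1% to 18.8% over all regions. At day 0, 82 members carried both kinds of peak and 22 H3.3K27me3 alone, and at day 6 these were 46 and 55. Among list genes, Adgrl3, Col4a1, Cyp26b1, Gata6, Meis1, Meis2, Runx1, Sema6a and Tshz1 had an H3.3K27me3 peak in both duplicates at day 0 and not at day 6, and Aldh1a2, Epha7, Nrip1, Robo2, Sema3a and Sema3c had one at day 6 and not at day 0. The day 6 H3.3K27me3 libraries were shallower (30.45 and 34.20 M tags against 71.13 and 49.87 M), and the share of members with a peak in 1 library alone ran from 14.3% to 28.1% at day 6 and from 16.8% to 17.9% at day 0. The part of depth in these counts was not tested, and a level of H3.3K27me3 per region was not analysed here.

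The H3 antibody is named H3 in the sample titles and h31 in the processed data, as H3K27me3 is named h31k27me3 there. Which forms of H3 these antibodies bound is not given in the labels. H3 was higher at day 6 at 58 of the 113 members that overlapped a row of the H3 table (51.3%). It was lower at 11 (9.73%), by limma at a Benjamini-Hochberg adjusted p below 0.05. Over all 6618 rows, 18% were higher and 34.3% lower. After centring each library, 68 members were higher (60.2%) and 5 lower (4.42%), beside 24.4% and 22.7% of all rows. Of the 113 members, 67 lay on chromosomes 8 and 14, and without those chromosomes 12 of 46 were higher (26.1%) and 4 lower (8.70%), beside 13.1% and 36.8% of rows. The count of members with more H3 therefore rests mainly on 2 chromosomes. The largest rises were at Robo2 on chromosome 16 (607 and 620, then 794 and 845, log2 0.42, SE 0.06, limma adjusted p = 6.52e-08), Mir125b-2 (0.40), Dgkb (0.39), Dach1 on chromosome 14 (0.38) and Cdh11 on chromosome 8 (0.33). The largest falls were at Rcsd1 (-0.41), Skap1 (-0.36), Micu2 (-0.27), Zfp248 (-0.19) and Itgb6 (-0.17), and the last 2 did not pass after centring (limma adjusted p = 0.154 and 0.128). The H3 row covered 100% of the member at Robo2 and Cdh11. It covered 4.56% at Dgkb, 11.7% at Skap1, 5.12% at Micu2 and 3.94% at Itgb6, so those H3 changes do not describe the whole member. At the others named it covered 22.7% (Mir125b-2) to 98.7% (Zfp248). Most members had no row in the H3 table.

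RNA of the genes annotated to members mostly rose during differentiation. Of the 753 genes, 743 were found in the count tables and 518 were tested in 2019; the other 225 had too few reads. At day 6, 429 of the 518 rose (82.8%) and 45 fell (8.69%), by edgeR's quasi-likelihood test with Benjamini-Hochberg adjustment over all genes. Over all 13593 genes tested, 41.4% rose and 36.6% fell. The median log2 change was 2.65 (2.52 with genes at 0 counts on day 0 set at their bound), against 0.09. In these bulk samples, fewer cells of a type and less RNA per cell cannot be told apart.

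The rise was present at day 3, when 378 genes were up (73.0%) and 48 down (9.27%), beside 37.6% and 33.8% of all genes; this comparison shares its day 0 libraries with that of day 6. In the separate 2020 series, with 1 wild-type library at day 0, 376 of 540 genes rose (69.6%) and 52 fell (9.63%), beside 36.0% and 34.8%. Of 511 genes tested in both years, 354 rose in both, which is 83.7% of those that rose in 2019 and 97.0% of those that rose in 2020. Over all genes tested in both years these shares were 73.4% and 82.5%. Genes at regions losing H3.3 had the opposite balance in 2019, with 32.8% up and 48.5% down of 1485. The genes with a mean CPM (reads scaled to a common library total) of 1 or more at day 0 were also counted alone: 264 of 350 rose and 45 fell, beside 35.2% and 42.6% of all genes at that level.

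Genes whose start lay inside a member, and genes with several members, rose in the highest shares. With the start inside, 130 of 139 rose by day 6 of 2019 and 2 fell, Ltv1 and Bcas3, named after their values were seen. With 3 or more members, 51 of 53 rose and 1 fell, Macrod2, a very long gene whose 7 members were all 346 kb or more from a start. Where no start lay inside a member, 299 of 379 rose and 43 fell. The differences between these groups of genes were not tested.

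**Figure D4:**
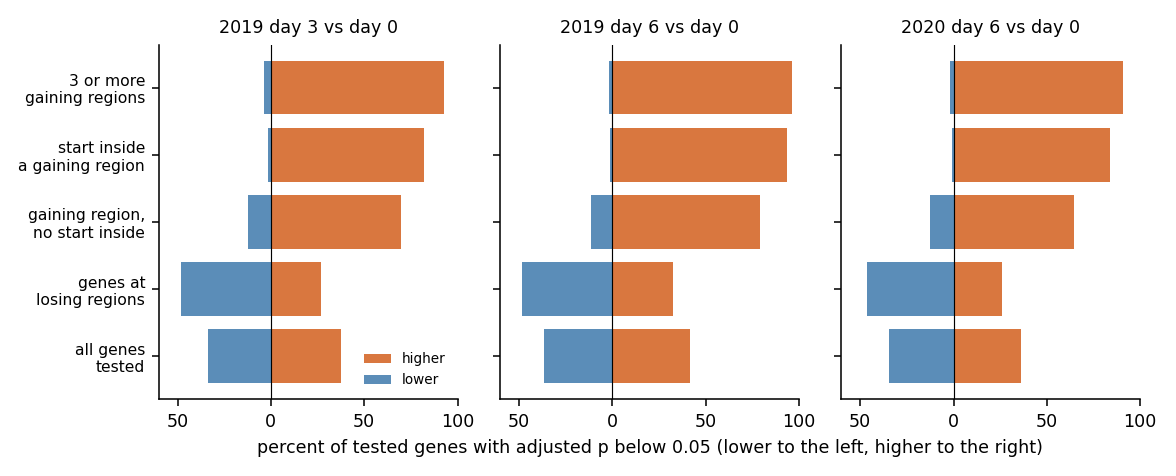
Percent of tested genes called higher (right of 0) or lower (left of 0) than day 0 at an adjusted p below 0.05 (edgeR), in 2019 day 3, 2019 day 6 and 2020 day 6 wild-type libraries. Of genes with 3 or more gaining regions, 96.2% were higher at day 6 of 2019, against 41.4% of all genes tested.

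The 12 genes with the largest rises by day 6 of 2019 had few or no reads at day 0 of that year. Dach1, a transcription cofactor of eye and limb development, had 0 counts in both day 0 libraries of 2019, 19.0 and 22.2 CPM at day 3 and 155 and 153 at day 6, at least 405-fold higher than a floor of 3 counts per library. Ednrb, an endothelin receptor of neural crest, went from 0 counts to 81.4 and 75.2 CPM (at least 205-fold) and Tcf21, a mesenchymal transcription factor, from 0 to 57.2 and 68.3 (at least 164-fold). Bmper (at least 98.4-fold), Pantr1 (63.3), Nr2f1 (60.8), Npas3 (36.2) and Fendrr (34.5) were also at 0 counts on day 0. Fat4, Cdh11, Pcdh18 and Nr2f2 had 6 or fewer counts in all at day 0 of 2019, and reached 285 and 280, 271 and 289, 108 and 111, and 352 and 374 CPM. All 12 had higher values in both day 6 libraries than in either day 0 library, and 11 of the 12 also rose in 2020. The exception was Cdh11 at 22.6 CPM on day 0 of 2020 and 35.2 and 26.3 on day 6 (edgeR adjusted p = 0.258).

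Of the retinoic acid list of 25 genes, 11 had a member (21 members, gains of 0.51 to 1.37) and none had a region losing H3.3. Over all genes with a region, 753 of 8914 (8.45%) had a member. That share leaves out genes without a region, which the lists also hold. This list and those below were chosen with earlier results of these data known, so their counts are a description and no test. The genes tested were 9, and all 9 rose at day 3 and day 6 of 2019 and at day 6 of 2020. Of the 22 genes of the whole list that were tested, 17 rose and 3 fell by day 6 of 2019, 18 and 4 by day 3, and 15 and 5 in 2020, beside the shares over all genes given above. The receptor gene Rarb had 0.321 and 0.281 CPM at day 0, 113 and 117 at day 3 and 174 and 162 at day 6 of 2019, and 0.931 then 212 and 234 in 2020. Every later library was far above day 0 in both years, and day 0 of 2019 rests on 2 and 3 counts.

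Among genes that handle retinoids, Cyp26b1 went from 1.13 and 0.469 CPM to 699 and 694 at day 3 and 630 and 593 at day 6 (log2 9.72, SE 0.15, edgeR adjusted p = 1.89e-13). Stra6, the cell surface receptor that takes up retinol, went from 1.29 and 0.375 to 279 and 291 and then 211 and 226 (log2 8.24, SE 0.19, edgeR adjusted p = 1.34e-12). Aldh1a2, which makes retinoic acid from retinaldehyde, went from 1.93 and 1.87 to 8.98 and 13.1 and then 130 and 146 (log2 6.18, SE 0.20, edgeR adjusted p = 2.06e-11). Cyp26b1 and Stra6 were near their highest level at day 3, while Aldh1a2 was still low then. Dhrs3 and Aldh1a1 had 0 counts at day 0 and reached 5.69 and 6.58 and 4.65 and 3.57 CPM (at least 16.1-fold and 10.8-fold). These 2 genes stayed low beside Cyp26b1, in CPM.

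Of the transcription regulators of the list, Meis1 went from 0.964 and 2.06 CPM to 202 and 198, and the zinc finger gene Tshz1 from 1.29 and 2.53 to 349 and 344. Their log2 changes were 6.91 and 7.38 (edgeR adjusted p of 1.33e-12 and 4.41e-13), and no day 6 value overlapped day 0. Nrip1, a nuclear receptor corepressor, and Meis2 were not tested: Meis2 is listed at 0 counts in all 17 libraries and Nrip1 at 3 and 2 on day 0 of 2019. Of the genes at members, 61 are listed at 0 in all 17 libraries, Robo2 and Syt1 among them, and the cause was not tested. The 14 retinoic acid genes with no member included Cyp26a1 and Rara, and 17 of the 25 had any region in the H3.3 table.

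**Figure D5:**
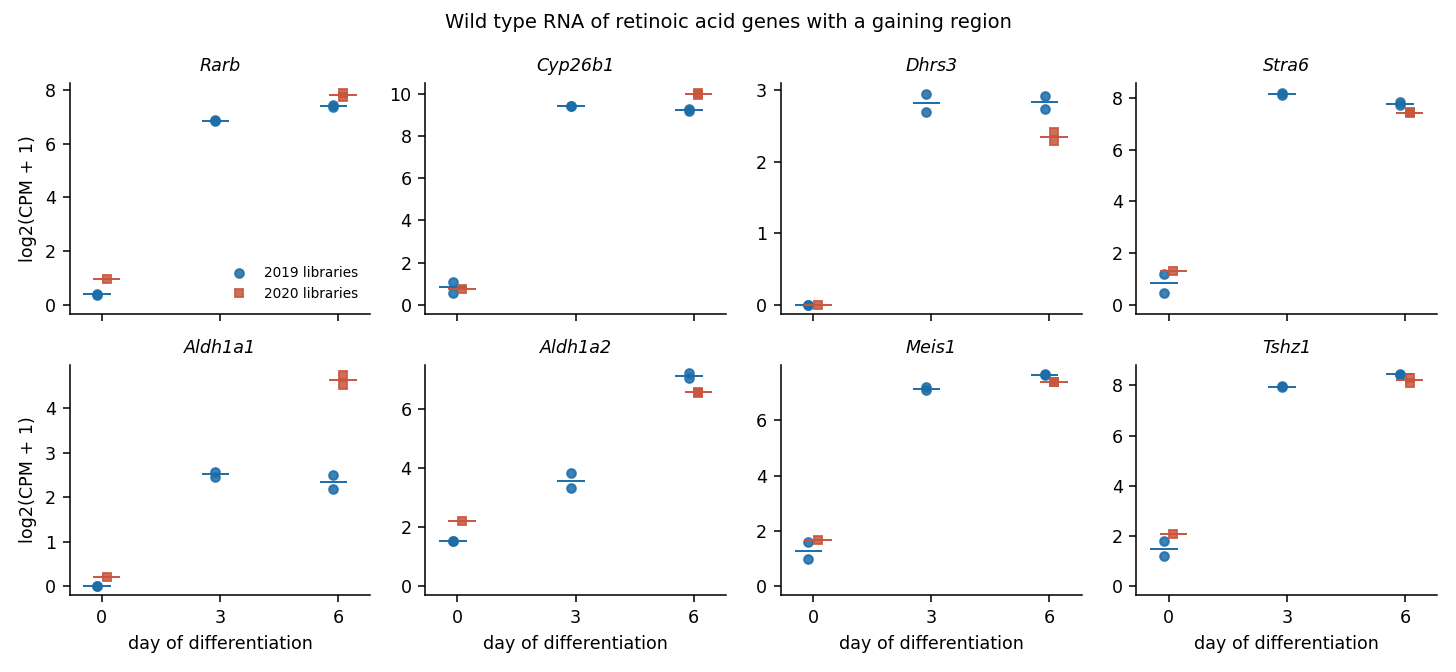
RNA level as log2(CPM + 1) (vertical axis) against day of differentiation for 8 of the 9 tested retinoic acid genes with a gaining region, 1 point per wild-type library with the group mean as a line, 2019 and 2020 in separate colours. All 8 sit higher at day 6 than at day 0 in both years; Cyp26b1 and Stra6 are already high at day 3 and Aldh1a2 is not.

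Of 30 endoderm genes, 10 had a member, and all 10 rose in each of the 3 comparisons with day 0. Of the 29 genes of the whole list that were tested, 21 rose and 6 fell by day 6 of 2019, 21 and 2 by day 3, and 23 and 5 in 2020. Gata6, a regulator of extraembryonic endoderm, went from 1.13 and 0.375 CPM to 104 and 112, and Sox17 from 0.482 and 0.0937 to 91.0 and 92.6. The basement membrane genes Col4a1 (27.3 and 22.3, then 2156 and 1977), Col4a2 (11.4 and 10.6, then 1252 and 1142), Lama1 (130 and 129, then 722 and 664) and Lamb1 (211 and 180, then 580 and 549) were the most abundant in CPM. Both Lama1 and Lamb1 were higher at day 3 than at day 6, at 993 and 998 and at 974 and 946. Foxa1, Foxa2 and Cubn were also among the 10.

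Of 39 axon guidance and adhesion genes, 14 had a member, 12 were tested and all 12 rose by day 6 of 2019, as did 26 of the 28 tested in the whole list, while 2 fell. Unc5c, a netrin receptor, went from 0.482 and 0 CPM to 109 and 109, and Epha7, an ephrin receptor with 5 members, from 3.70 and 3.56 to 134 and 140. N-cadherin (Cdh2) went from 9.64 and 8.72 to 207 and 211, and Plxna2, a semaphorin receptor, from 7.71 and 9.09 to 178 and 150. At each of these genes both day 6 libraries lay above both day 0 libraries, and the values at day 3 lay between. Of the proneural and neuron genes, 6 of 35 had a member, and the 4 tested (Ebf2, Isl1, Map2 and Slit2) rose by day 6 of 2019. In 2020 Map2 did not pass (19.4 CPM, then 69.4 and 38.9, edgeR adjusted p = 0.0627).

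Of 18 endothelium and blood genes, 4 had a member: Kdr, Cd34, Runx1 and Ednrb. Kdr, the receptor of vascular endothelial growth factor, had 1.29 and 1.22 CPM at day 0, 214 and 215 at day 3 and 19.6 and 22.3 at day 6. Cd34 had 3.05 and 3.19, then 65.4 and 64.8, then 2.66 and 3.11. Both were highest at day 3, and Cd34 was not called at day 6 (edgeR adjusted p = 0.645) although its region held more H3.3 then. Of the other lists, mesoderm and mesenchyme had members at 2 of 29 genes (Tcf21 and Twist1), neural progenitor at 2 of 32 (Gli3 and Sox11) and interferon response at 1 of 17 (Usp18), and all 5 rose by day 6 of 2019; these genes are named by the lists. No pluripotency gene of 25 had a member and 9 had a region losing H3.3. No HOX gene of 39 had a member, though 30 of 32 tested rose by day 6 of 2019; 2 of the 39 had any region in the table. The genes of PRC2 and its demethylases, of H3.3 and its chaperones, and of proliferation had none.

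The 45 genes at members that fell were led by Pfkp, a phosphofructokinase of glycolysis, at 327 and 307 CPM on day 0 and 13 and 15.7 on day 6 (log2 -4.47, SE 0.10, edgeR adjusted p = 1.35e-12). Alox5ap (-2.88), Kbtbd8 (-2.21), Psat1, a serine synthesis enzyme (-2.18), Mitf (-1.96), Mycn (-1.67), Cmss1 (-1.58), Mterf1b (-1.53), Twistnb (-1.41), Pcx (-1.36), Ltv1 (-1.34) and Snx10 (-1.31) followed. None of the 12 but Ltv1 had its start inside a member. Psat1 stood at 687 and 755 CPM, then 166 and 153, and Mycn at 453 and 428, then 129 and 147. Pfkp, Mitf, Mycn, Cmss1, Mterf1b and Twistnb also had a region that lost H3.3, as did 95 of the 753 genes.

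The markers of the cultures moved with these changes. In wild type, 5 of 5 stem cell markers fell by day 6 in both years, with a summed level of 4143 and 3820 CPM at day 0 and 120 and 128 at day 6 of 2019. The 5 endoderm markers went from 5.46 and 4.78 to 347 and 352, and the 5 neural progenitor markers from 83.1 and 71.7 to 477 and 452. The sum of the endothelial markers was highest at day 3 (84.5 and 110, then 561 and 560, then 44.0 and 55.5). At day 3, 4 of the 5 were higher than at day 0. Pecam1 fell throughout (72.3 and 95.5, then 54.9 and 56.9, then 3.62 and 4.85). Neuronal markers summed to 414 and 460 CPM on day 0 of 2019, 28.8 and 47.0 on day 3 and 1135 and 956 on day 6. By that day 4 of the 5 had risen and Stmn2 had fallen (223 and 255, then 90.5 and 71.1). In 2020 their sum was 579 on day 0 and 264 and 150 on day 6, with 1 of 5 higher and 1 lower. Mesenchymal markers went from 15.8 and 11.6 to 954 and 1138 in 2019. They were at 191 and then 249 and 223 in 2020, with 3 of 5 higher and 2 lower, so marker levels differed between the years. No marker of these lists was at 0 in a wild-type library of day 6. The part of cell makeup in the rise of the genes at members was not tested. RNA libraries held 6.97 to 12.71 M gene counts in 2019 and 14.27 to 22.03 M in 2020.

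H3f3a, the gene targeted in the knockout, was low in both edited lines: the knockout had 20.9 and 23.1 CPM at day 6 against 119 and 114 in wild type. It was as low in H3.3K27A (20.4 and 20.4), and H3f3b was at 599 and 599 CPM there, 1134 and 1051 in the knockout and 885 and 894 in wild type. H3.3K27A was therefore also set against the knockout. Chromatin of the edited lines was not analysed here.

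Few genes at members were called in H3.3K27A embryoid bodies against wild type. At day 6, 14 of 540 were higher (2.59%) and 4 lower (0.741%), beside 1.13% and 0.908% of all 14760 genes (edgeR, Benjamini-Hochberg adjusted p below 0.05). DESeq2 on all libraries called 21 and 6, with 409 genes called in all, against 301 in all by edgeR. The calls at members did not hold when any of the 4 libraries was left out, with a single library left in the group. Most calls over all genes were lost as well, so that loss is not particular to genes at members. The 4 lower genes, named after their values were seen, were Creb5 (1.42 and 1.86 against 4.93 and 5.23 CPM), Rgs10, Npr3 and Sesn3. Among the 14 higher, Adh1, an alcohol dehydrogenase that oxidises retinol, had 319 and 295 CPM against 81.5 and 100, Dlk1 487 and 417 against 249 and 283, and Igf1 50.5 and 44.8 against 26.3 and 26.8. In all 3 the H3.3K27A libraries lay above both wild-type libraries. Of the retinoic acid list, none of the 9 tested genes with a member passed: Rarb stood at 208 and 206 against 212 and 234 CPM and Cyp26b1 at 888 and 941 against 1065 and 1001.

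Set against the knockout, H3.3K27A had 102 of 540 genes higher (18.9%) and 67 lower (12.4%), beside 9.03% and 9.64% of all genes. The 2 knockout libraries used here differed from each other, with summed endoderm markers of 1193 and 635 CPM. How far these counts depend on single libraries is not reported here. Of genes with 3 or more members, 14 of 54 were higher and 3 lower.

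In the H3.3A knockout, 53 of the 540 genes were higher than wild type at day 6 (9.81%) and 48 lower (8.89%), beside 6.98% and 4.42% of all genes (edgeR, Benjamini-Hochberg adjusted p below 0.05). These counts hang on single libraries: without knockout replicate 2 they were 117 and 197, and without wild-type replicate 1 or 2 they were 11 and 6, or 19 and 6. Of the 10 endoderm genes with a member 6 were higher, namely Lama1 (6031 and 4134 against 826 and 1134 CPM), Lamb1 (5458 and 3352 against 967 and 1277), Col4a1 (13872 and 9124 against 3286 and 3893) and Gata6 (379 and 207 against 108 and 124), with Col4a2 and Cubn. Both knockout libraries lay above both wild-type libraries in these genes. The whole endoderm list moved with them, 22 of 29 genes higher and none lower, and the summed endoderm markers were 1193 and 635 CPM against 399 and 463. The summed stem cell markers were 399 and 215 against 131 and 156, and most of the knockout sum was Klf4 (286 and 152 against 88.2 and 98.4). Of the 5 markers 2 were called higher, Klf4 and Zfp42, while Pou5f1, Nanog and Esrrb did not pass. The part of cell makeup in the result was not tested.

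Of genes with 3 or more members, 1 was higher in the knockout, Lhfpl2, and 7 were lower, among them Usp29, Sox6, Mdfic, Atp2b1, Nr2f2 and Exoc6b. Nr2f2 had 213 and 260 CPM against 331 and 333 (log2 -0.49, SE 0.11, edgeR adjusted p = 0.0250). Of the retinoic acid list Aldh1a2 was lower too (40.1 and 62.5 against 92.4 and 94.3 CPM, edgeR adjusted p = 0.0163). Sox6 stood at 7.96 and 9.84 against 15.6 and 13.6 CPM. In Nr2f2, Aldh1a2 and Sox6 every knockout library lay below both wild-type libraries, and the knockout and H3.3K27A comparisons share the wild-type libraries.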

How the data were processed

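The members and gene lists were chosen with earlier results of these data known. Per the submitters' processing notes, STAR 2.5.2a, MACS2, DiffBind, HTSeq and DESeq2 were used with the mm10 build. Each ChIP library joined 3 sequencing runs. The deposited H3.3, H3 and H3K27me3 tables give a signal of scaled reads per region and library, and a false discovery rate (an adjusted p-value) per region, per the file headers. The deposited peak files give a fold enrichment ratio over the genome-wide mean, and the authors' filtered peak lists were used; how they were filtered is not given in the sources used here. Per the file headers, the authors' log2 fold change per region is also deposited and was not needed. RNA was deposited as raw counts, 1 whole number for each gene and library; reads with no gene (22.5% to 50.8%) were left out. Depth was 30.45 to 74.23 M tags per ChIP library.

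H3 and H3K27me3 were tested with limma 3.58.1 (trend) on log2(scaled reads + 1); a mean filter of 10 removed no row, and a member took the row it shared most bases with. RNA was tested with edgeR 4.0.16 (filterByExpr, TMM, quasi-likelihood F-test), each year in its own fit with 1 mean per group, and 1 shared spread, which the lone wild-type library of 2020 day 0 was assumed to have. P-values were Benjamini-Hochberg adjusted over all rows or genes. The scripts were tested on simulated data. Of the 753 gene names 727 matched by symbol and 16 by synonym. Peak overlap needed 1 base in both duplicates. Regions and genes were named by the largest changes, the threshold and the lists. Sequences are GRCm38; promoters are RefSeq GRCm38.p6. Alternatives were another pseudocount, scaling, filter, overlap, threshold, DESeq2, a replicate block, and leaving out each library. Values of some single genes are not reported here.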

Additional observations from a re-analysis of the deposited data

Results flagged for a closer look

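In 5 named genes at members, every wild-type library moved one way from day 0 to day 6 in 2019 and the other way in 2020; the difference between the years was not tested. Mitf fell by 1.96 on the log2 scale in 2019 (27.3 and 25.7 CPM, then 7.31 and 6.22) and rose by 0.41 in 2020 (8.33, then 11.2 and 10.9; edgeR adjusted p = 0.0408). Bambi rose by 1.18 (12.4 and 10.8, then 23.6 and 28.5) and then had a change of -0.74 (20.9, then 12.9 and 12; edgeR adjusted p = 7.95e-04). Rbm20 rose by 1.06 (3.21 and 2.44, then 6.65 and 4.75) and had -1.21 in 2020 (5.64, then 2.73 and 2.14; edgeR adjusted p = 0.00168). Fam64a rose by 0.59 (45.5 and 48.5, then 66.9 and 74.8) and had -0.28 (40.5, then 34.0 and 32.7; edgeR adjusted p = 0.0449). Bcas3 fell by 0.50 (65.9 and 79.4, then 48.6 and 55.0) and had 0.25 in 2020 (52.3, then 58.5 and 65.7; edgeR adjusted p = 0.108). In 2020 day 0 is 1 library. Of the 511 genes at members tested in both years, 7 were called in opposite directions (Mitf, Bambi, Rbm20, Fam64a, Csrnp3, Ece1 and Rock2, and not Bcas3), as were 220 and 165 of 13326 genes in all.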

How the results depend on the processing

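Most results for single genes and regions kept their side of the threshold: of 3019 alternative values for 423 results, 2871 did, 85 no longer passed, 63 newly passed and 0 changed direction. The number of members was 486 at a threshold of 0.6 and 2065 by the authors' false discovery rate, which keeps 1087 of the 1115. Members lower in H3 numbered 5 after centring, 6 by the authors' rate, 5 with an overlap of 50% or more, 4 without chromosomes 8 and 14 (added after seeing the data) and 5 to 13 leaving out a library; members higher in H3 numbered 12 without those chromosomes. Members higher in H3K27me3 numbered 77 after centring, 14 by the authors' rate, 10 without those chromosomes and 9 to 22 leaving out a library (9 without day 0 replicate 1, 17 without day 6 replicate 1); 62 were lower with an overlap of 50% or more. With genes taken only where a start lay within 3000 bases of a member, 136 rose and 2 fell (2019 day 6), 120 and 2 (day 3), 124 and 2 (2020), 5 and 2 were higher and lower in H3.3K27A, and 21 and 13 in the knockout.

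For H3.3K27A against wild type, 23 genes were higher and 16 lower with no filter (586 called over all genes), and 102 and 67 against the knockout (added after seeing the data). Leaving out a library, the calls against wild type were lost, as were most of those over all genes. For the knockout the ranges were 11 to 117 higher and 6 to 197 lower. H3.3K27me3 peaks covered 25.4% and 33.4% of members (days 0 and 6) in either duplicate, 3.50% and 2.51% with an overlap of 50% or more, 0 and 0 with an enrichment of 5 or more, and 16.8% to 17.9% and 14.3% to 28.1% in 1 library.

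Replicate numbers were shared across groups, and the main fits used no pairing. The differences between replicates correlated between groups at -0.10 for H3K27me3, -0.01 for H3 and -0.36 to 0.14 for RNA. The value of -0.36 was for knockout and wild type at day 6 of 2020, where libraries of opposite number tended to deviate together. Whether those libraries shared a batch was not tested. With the replicate number as a block, 8 and 2 genes were higher and lower in H3.3K27A and 38 and 27 in the knockout, 58 and 11 members in H3, 23 and 121 in H3K27me3, and 428 and 43 genes rose and fell in 2019; crossed, H3K27me3 gave 34 and 132 and the knockout 65 and 61. Leaving out the lone wild-type library of 2020 day 0 could not be run. Where counts moved, the cause was not tested, unless fewer libraries, genes or regions were used.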

Other observations

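Of the 753 genes with a gaining region, 95 also had a region that lost H3.3, and Nr2f1 had the most gaining regions among them (10 gaining, 1 losing); no other had more than 3. In the 2019 RNA, the 451 tested genes with a gaining and no losing region had 383 higher (84.9%) and 29 lower (6.43%) at day 6. H3 peaks in both duplicates covered 45 members at day 0 (4.04%) and 87 at day 6 (7.80%), and 23.3% and 14.3% of all regions. The part of region width in these shares was not tested.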
